A study of Homo sapiens with 6 samples.

Results

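The D-type cyclins, their kinase partners CDK4 and CDK6, and the inhibitors that hold these kinases in check were examined in neurons. The neurons were glutamatergic, derived from human stem cells and depleted of RBM12, with and without stimulation by isoproterenol. Genes were selected by name as members of this pathway: the D cyclins CCND1, CCND2 and CCND3, the kinases CDK4 and CDK6, the CIP/KIP inhibitors CDKN1A, CDKN1B and CDKN1C, and the INK4 inhibitors CDKN2C and CDKN2D. Of these 10 genes, 9 had a row among the 19823 genes of the table, and all 9 were among the 18130 genes that passed a filter of more than 5 reads in at least 4 samples. The expression of CDKN2C was not analysed here. The list was proposed with the normalized counts of isoproterenol against untreated samples already known, so it counts as chosen by those values, and the responses below are a description of these 9 genes and not an independent test of them.

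D cyclins bind CDK4 or CDK6, and the active kinases phosphorylate the retinoblastoma protein RB, which releases E2F transcription factors and commits a cell to S phase. INK4 proteins bind CDK4 and CDK6 directly and block their pairing with D cyclins, whereas CIP/KIP proteins bind cyclin-CDK complexes. Neurons have left the cell cycle for good, yet several of these genes are known to stay expressed in them. CDKN1B and CDKN2D in particular are known for their role in keeping neurons from dividing again.

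Poly(A) transcripts were sequenced in 6 samples of iNeurons from WTc11, an induced pluripotent stem cell line. The cells came from a clonal line with a doxycycline-inducible NGN2 gene, whose product drives glutamatergic differentiation, and with dCas9-KRAB, a silencing protein for CRISPR interference (CRISPRi). All 6 samples carried the RBM12 knockdown and only the native β2-adrenergic receptor of the parental line. In 3 of them the neurons were untreated, and in the other 3 they received isoproterenol, an agonist of that receptor. The labels give neither dose nor duration, and they do not say whether replicates came from separate cultures, so p-values measure only the spread between these samples. Neurons with a non-targeting guide were not analysed here.

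Each value is a normalized count, the reads of a gene divided by a size factor for its sample, and the samples held 18116816 to 21488793 reads. RBM12, the targeted gene, was at 244.3 to 278.7 in untreated and 194.6 to 237.6 in isoproterenol samples, and the groups did not overlap. The same held for 12.9% of all genes tested, 6.19% with isoproterenol below. The RBM12 log2 fold change was -0.25. In limma the adjusted p was 0.607, or 0.131 with same-numbered samples as a block, so RBM12 passed neither fit. The depletion itself was not analysed here, as all samples carry it, RBM12 shares 575 exon bases with CPNE1, and the part of its lower level in the results was not tested. All 10 neuronal markers had values, the lowest being TUBB3 at 75.2 to 79.7 in untreated and 69.2 to 94.4 in isoproterenol samples. Their sum was 394535 to 430287 in untreated and 381002 to 405012 in isoproterenol samples. Most of that sum was NEFM, a neurofilament gene, which was lower in all 3 pairs (means of 260503 and 236361). Its log2 fold change was -0.14, with an adjusted p of 0.326 in limma and 6.46e-11 in edgeR, both with the block. The other 9 log2 fold changes were above 0 in limma, with those of SNAP25 (2.21e-05) and MAP2 (4.71e-04) close to it. In edgeR without the block SNAP25 and MAP2 were below 0 (-0.0044 and -0.0014). Of 8 proliferation markers, CCNA2, CCNB1 and PLK1 had values, summing to 166 to 193 and 173 to 204, whereas MKI67, TOP2A, CDK1, BIRC5 and AURKB had no row. The pluripotency list had values for 3 of 7 genes, summing to 19.4 to 19.8 and 15.4 to 28.8, with SOX2 at 0 in 5 of 6 samples. Neural progenitor genes had values for 7 of 8 and summed to 9233 to 9606 and 9174 to 9627, mostly from NES and VIM. Summed astrocyte markers (2 of 5 with values) were at 160 to 175 and 134 to 157, without GFAP, ALDH1L1 and SLC1A3. Oligodendrocyte markers (3 of 5) were at 1047 to 1090 and 1101 to 1171, without SOX10 and PDGFRA, and the higher sum came from MBP (937 and 1024 on average), since OLIG1 and OLIG2 had log2 fold changes of -0.25 and -0.78. The fibroblast list had a value for 1 of 6 genes, at 15.5 to 24.2 and 15.4 to 25.4. The astrocyte and oligodendrocyte sums did not overlap between the groups, but none (0) of the markers behind them passed in either limma fit. Each of the 2 astrocyte markers overlapped between the groups. The MBP groups did not overlap, with a limma adjusted p of 0.650 without and 0.142 with the block. The OLIG2 value rested on 6 to 28 reads per sample, with an unblocked SE of 0.51 and a 95% interval of -1.88 to 0.31. The part of these sums in the results below was not tested. In bulk RNA, fewer cells of a type and less RNA per cell cannot be told apart.

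Promoter sequence was taken from RefSeq on GRCh38.p14 for 7 of the 10 genes, the others being CCND1, CCND2 and CDKN1C. The 250 bases before each annotated start were searched on both strands. Isoproterenol acts through cAMP and the factor CREB, whose full site, the cAMP response element TGACGTCA, was in none (0) of these windows, against 1.65% of the 35116 windows in the table. The shorter core TGACG, held by 21.2% of all windows, was found in 1 of 2 CDK6 windows and in each CDKN2C window. No window held the AP-1 motif TGANTCA (6.57% of all windows), a TATA box TATAAA (10.7%), or the E2F words TTTCGCGC, TTTGGCGC, TTTCCCGC and TTTGCCGC (2.79%). The GC box GGGCGG (42.6%) was found 4 times before CDKN1A, where 2 of the copies overlap by 1 base, and 7.63% of all windows held at least 4. The CDK4 window held 3 E-boxes, CACGTG (6.34%), as did 28 windows in all (0.0797% with at least 3). CCAAT (32.0%) occurred in the windows of CDKN1B, CDKN2D, CCND3 and CDKN2C. Shown are the last 120 bases before the start of CDKN1A (chr6:36678594-36678713, plus strand) and CDKN2D (chr19:10568980-10569099, minus strand), 2 inhibitors whose values were higher with isoproterenol in every pair, the 250 bases before CDK4 (chr12:57752311-57752560, minus strand), whose values did not differ in 1 direction, and the 120 bases before the second CDK6 start (chr7:92833960-92834079, minus strand). Capitals mark GC boxes for CDKN1A and CDKN2D, E-boxes for CDK4, and the core TGACG for CDK6, in either orientation. A match is a matter of letters only and does not show binding.
CDKN1A: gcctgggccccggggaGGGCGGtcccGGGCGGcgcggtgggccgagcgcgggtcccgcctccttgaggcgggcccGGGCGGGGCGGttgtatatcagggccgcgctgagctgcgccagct
CDKN2D: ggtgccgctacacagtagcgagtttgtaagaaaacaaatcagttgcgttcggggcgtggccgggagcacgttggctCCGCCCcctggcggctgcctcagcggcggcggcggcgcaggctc
CDK4: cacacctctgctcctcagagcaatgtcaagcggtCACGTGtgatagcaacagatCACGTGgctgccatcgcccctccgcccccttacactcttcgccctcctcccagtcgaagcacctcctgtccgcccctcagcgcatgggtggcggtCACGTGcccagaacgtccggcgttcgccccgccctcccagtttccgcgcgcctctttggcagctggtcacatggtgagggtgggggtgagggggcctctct
CDK6: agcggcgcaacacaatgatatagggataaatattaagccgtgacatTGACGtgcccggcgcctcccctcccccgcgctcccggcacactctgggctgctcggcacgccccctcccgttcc

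Levels of different genes were compared per kilobase (kb) of merged exons in the 3 untreated samples. CDKN2D, which encodes the INK4 inhibitor p19, stood highest at 2119.6 ± 91.7 normalized counts per kb (SD, n = 3), above 98.8% of the 18064 genes with a length. CCND1 followed at 794 ± 28.9, then CDKN1C, the p57 inhibitor, at 508 ± 13.4 and CCND2 at 459 ± 27.8. CCND1 stood above 94.9%, CDKN1C above 91.2% and CCND2 above 89.9% of these genes. CDKN1B, which encodes p27, was at 190.4 ± 5.17 per kb, CDK4 at 151 ± 14.4, CDKN1A, which encodes p21, at 90.3 ± 15.7 and CCND3 at 64.3 ± 5.78. CDK6 came last by a wide margin, at 5.59 ± 0.664 per kb, above 11.6% of genes. The sample ranges of neighbours in this order did not overlap, the closest being CDKN1C at 497 to 523 against CCND2 at 434 to 489, and CDKN1A at 72.3 to 101 against CCND3 at 60.5 to 70.9.

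**Figure D1:**
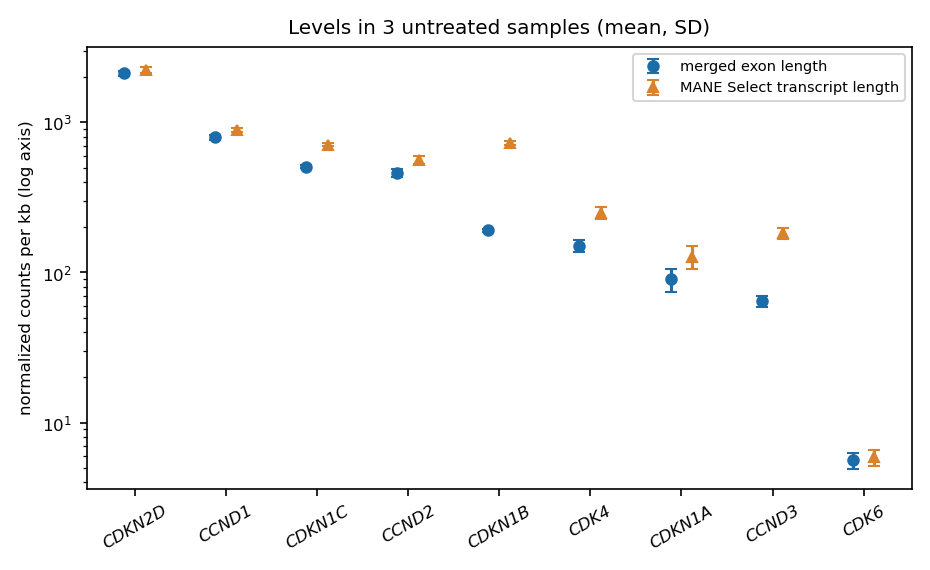
Normalized counts per kb (log axis) of the 9 genes in the 3 untreated samples, as mean and SD, with each gene's length taken as its merged exons (circles) or its MANE Select transcript (triangles). CDKN2D is highest and CDK6 lowest on both lengths, and CDKN1B moves from 190.4 to 731.

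The middle of the order depended on the length used. With MANE Select transcripts, 1 reference transcript per gene, CDKN1B came next after CCND1 at 731 ± 19.8 normalized counts per kb, next to CDKN1C at 711 ± 18.7, and this pair differed by about the SD. CCND3 then stood at 183 ± 16.4, above CDKN1A at 128 ± 22.2. CDKN2D, CCND1, CDK4 and CDK6 held the same places in both orders.

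Among the D cyclins, CCND1 was higher with isoproterenol in every sample, CCND3 was higher in every pair with overlapping groups, and CCND2 showed no common direction. Same-numbered samples were taken as pairs, since their deviations from the group means correlated, and a limma fit with the pair as a block is given where it changes a call. Fold changes are on the log2(normalized count + 1) scale, and p-values were adjusted over all 18130 genes by the Benjamini-Hochberg method.

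CCND1 (ENSG00000110092, chr11:69641156-69654474, plus strand), the cyclin D1 gene, read 3938, 3687 and 3714 normalized counts in untreated samples 1, 2 and 3 and 4749, 4335 and 4298 in isoproterenol samples 1, 2 and 3. All isoproterenol samples lay above all untreated samples. The means were 3779 ± 138 and 4461 ± 250.2 (SD, n = 3), which put isoproterenol at 118% of untreated. Its log2 fold change was 0.24 (SE 0.048, 95% interval 0.14 to 0.34), and the pairs gave 0.27, 0.23 and 0.21. In limma the adjusted p was 0.116 unblocked and 1.92e-10 blocked, and unblocked DESeq2 gave 0.0374. Leaving out 1 sample gave log2 fold changes of 0.19 to 0.27, with a limma adjusted p of 0.0307 without isoproterenol replicate 2 and 0.659 without isoproterenol replicate 1. CCND1 shares 497 exon bases with LTO1 on the opposite strand, which was at 235 to 269 normalized counts in untreated and 212 to 238 in isoproterenol samples.

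CCND2 (ENSG00000118971, chr12:4269771-4305353, plus strand), the cyclin D2 gene, read 3907, 3634 and 3468 normalized counts in untreated and 3543, 3867 and 3456 in isoproterenol samples. The groups overlapped, and pairs 1 and 2 went opposite ways, at -0.14 and 0.089 on the log2 scale. Its log2 fold change was -0.02 (SE 0.052), with a 95% interval of -0.13 to 0.09, or -0.08 to 0.04 with the block. CCND2 shares 999 exon bases on the same strand with ENSG00000285901, which has no row, so reads between them cannot be assigned with certainty.

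CCND3 (ENSG00000112576, chr6:41934934-42050357, minus strand), the cyclin D3 gene, read 354.0, 348.3 and 408.6 normalized counts in untreated and 424.1, 387.5 and 457.5 in isoproterenol samples. Replicate 3 was highest in both groups, and the groups overlapped while each pair was higher, by 0.26, 0.15 and 0.16 on the log2 scale. The log2 fold change was 0.19 (SE 0.092), with a 95% interval of 0.04 to 0.34 with the block. Its adjusted p in limma was 0.650 unblocked and 0.146 blocked, so CCND3 passed neither.

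The mix of D cyclin transcripts differed accordingly. Per kb of merged exons, CCND1 made up 60.0%, 60.0% and 60.7% of the D cyclin sum in untreated samples and 65.9%, 62.3% and 63.8% in isoproterenol samples. These shares did not overlap. The shares and the ratios below are computed from the values given above and are no separate result. On MANE Select lengths the CCND1 shares were 54.4 ± 0.0820% and 57.8 ± 1.69%. Per kb of merged exons, the CCND2 share was 34.9 ± 0.937% and 31.0 ± 1.95%, and the CCND3 share 4.89 ± 0.558% and 5.02 ± 0.526%. The CCND3 share depended on the length used, at 11.2 ± 1.19% and 11.5 ± 1.12% on MANE Select lengths. CCND1 and CCND2 had nearly equal normalized counts in untreated samples, with ratios of 1.01, 1.01 and 1.07, and CCND1 led in isoproterenol samples with ratios of 1.34, 1.12 and 1.24.

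**Figure D2:**
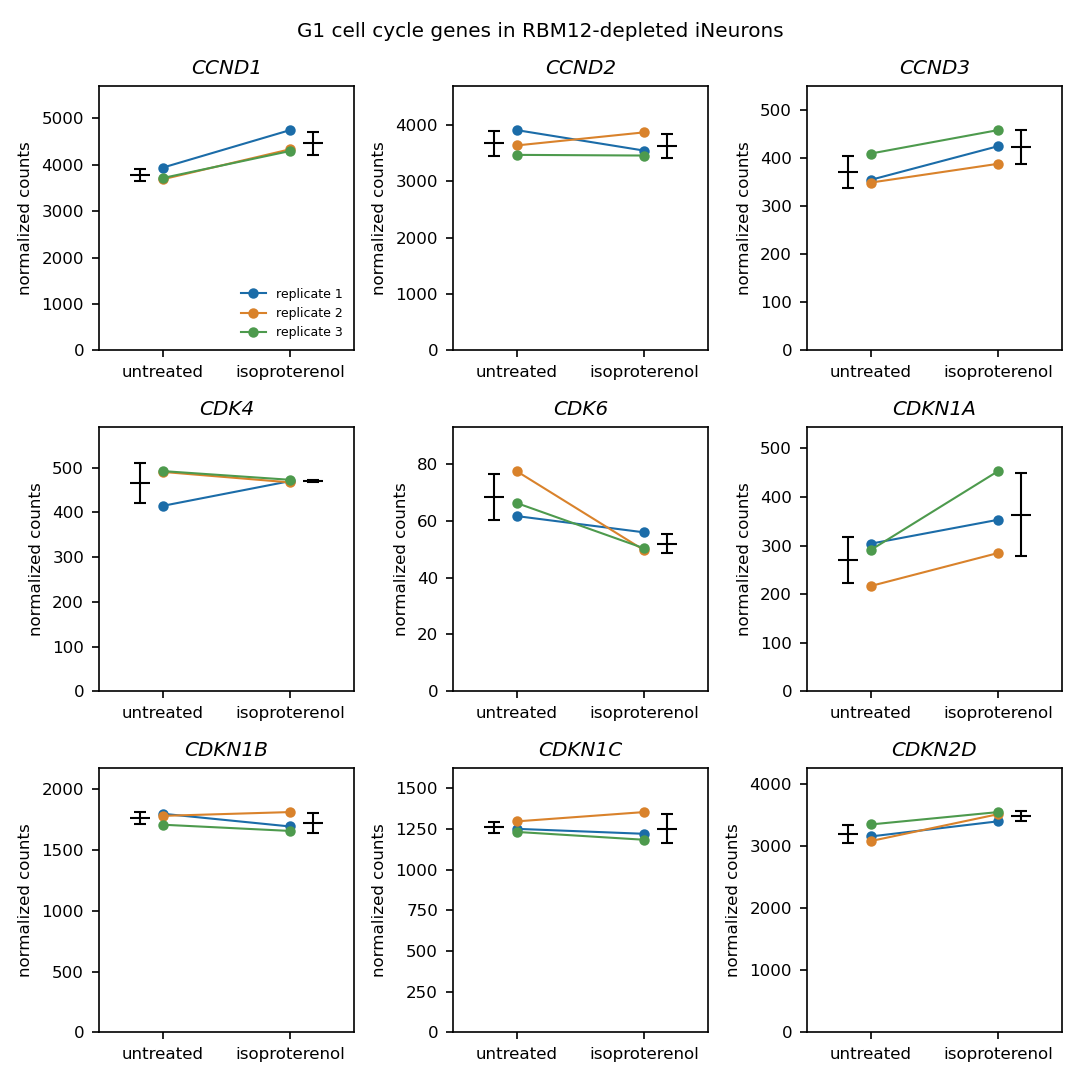
Normalized counts of the 9 genes in each of the 6 samples (axes start at 0), with lines joining same-numbered samples and black bars for the group mean and SD. All 3 lines go up for CCND1, CCND3, CDKN1A and CDKN2D and down for CDK6, and the lines of the other 4 genes cross directions.

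The kinases gave no call in any fit. CDK4 (ENSG00000135446, chr12:57747727-57756013, minus strand) read 414.5, 490.6 and 492.4 normalized counts in untreated and 470.0, 467.1 and 472.9 in isoproterenol samples. Untreated sample 1 was the low one, and the other untreated samples lay above all isoproterenol samples. The log2 fold change was 0.02 (SE 0.083), with a 95% interval of -0.16 to 0.19. CDK4 shares 1369 of its 3094 exon bases with TSPAN31 on the opposite strand, which was at 310.1 to 370.3 and 347 to 383 normalized counts. Whether counting used strand is not given in the sources used here, so their reads cannot be told apart with certainty.

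CDK6 (ENSG00000105810, chr7:92604921-92836573, minus strand) rested on few reads, 59, 80 and 64 in untreated and 56, 43 and 49 in isoproterenol samples. As normalized counts these were 61.6, 77.4 and 66.2 against 55.9, 49.6 and 50.3, and all isoproterenol samples lay below all untreated samples. The means were 68.4 ± 8.13 and 51.9 ± 3.45 (SD, n = 3), and the log2 fold change was -0.39 (SE 0.19), with pairs at -0.14, -0.63 and -0.39. In limma the adjusted p was 0.651 unblocked and 0.309 blocked. The untreated coefficient of variation of 11.9% was close to the 12.2% that read counting alone gives, so a difference of this size was near the limit of this depth. CDK6 made up 3.58 ± 0.276% of the CDK4 and CDK6 sum per kb of merged exons in untreated and 2.72 ± 0.175% in isoproterenol samples. On MANE Select lengths the CDK6 share was 2.30 ± 0.180% and 1.74 ± 0.113%.

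Of the CIP/KIP inhibitors, CDKN1A was higher with isoproterenol in each pair, and CDKN1B and CDKN1C stayed within the spread of replicates. CDKN1A (ENSG00000124762, chr6:36676460-36687337, plus strand), an inhibitor known to arrest dividing cells, read 303.9, 216.7 and 290.7 normalized counts in untreated and 353.2, 284.9 and 453.4 in isoproterenol samples. Replicate 2 was lowest in both groups, and the groups overlapped. The means were 270.4 ± 47.0 and 364 ± 84.8 (SD, n = 3), a difference of 34.5%, and the log2 fold change was 0.42 (SE 0.18, 95% interval -0.01 to 0.84). The pairs gave 0.22, 0.39 and 0.64 (SD 0.21), and with the block the interval was 0.24 to 0.59 (SE 0.087). That SE rests on variance shared across genes and not on the spread of these pairs alone. The adjusted p in limma was 0.651 unblocked and 4.75e-04 blocked. The replicates varied by 17.4% and 23.3% (coefficient of variation), against 6.14% and 5.36% from read counting. Single samples moved the size: the log2 fold change was 0.24 without isoproterenol replicate 3 and 0.27 without untreated replicate 2. It was 0.58 without isoproterenol replicate 2.

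CDKN1B (ENSG00000111276, chr12:12685498-12722369, plus strand) read 1798, 1780.4 and 1708 normalized counts in untreated and 1693, 1812 and 1657 in isoproterenol samples. Its groups overlapped, and the log2 fold change was -0.04 (SE 0.052), with a 95% interval of -0.14 to 0.07. CDKN1C (ENSG00000129757, chr11:2883213-2885775, minus strand) read 1251, 1297 and 1232 in untreated and 1220.3, 1354 and 1184 in isoproterenol samples. Its log2 fold change was -0.01 (SE 0.060), with an interval of -0.14 to 0.11. For both genes replicate 2 was the highest isoproterenol sample and the only one above its untreated partner. CDKN1A supplied 11.4 ± 1.96% of the CIP/KIP transcript sum per kb of merged exons in untreated and 15.0 ± 3.69% in isoproterenol samples, with overlapping ranges. On MANE Select lengths the CDKN1A share was 8.14 ± 1.41% and 10.8 ± 2.75%.

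CDKN2D (ENSG00000129355, chr19:10566460-10569059, minus strand), the only INK4 member with a row, read 3150.4, 3076 and 3343 normalized counts in untreated and 3395, 3509 and 3543 in isoproterenol samples. All isoproterenol samples lay above all untreated samples, though by a small step. The means were 3189.9 ± 138 and 3482 ± 77.8 (SD, n = 3), a difference of 9.17%. Its log2 fold change was 0.13 (SE 0.046, 95% interval 0.03 to 0.22), with pairs at 0.11, 0.19 and 0.084. Unblocked limma gave an adjusted p of 0.528, blocked limma 0.00388 and unblocked DESeq2 0.875. CDKN2B, an INK4 gene outside the list that was looked up after these values were seen, was at 26.1 to 31.0 normalized counts in untreated and 25.9 to 34.6 in isoproterenol samples.

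**Figure D3:**
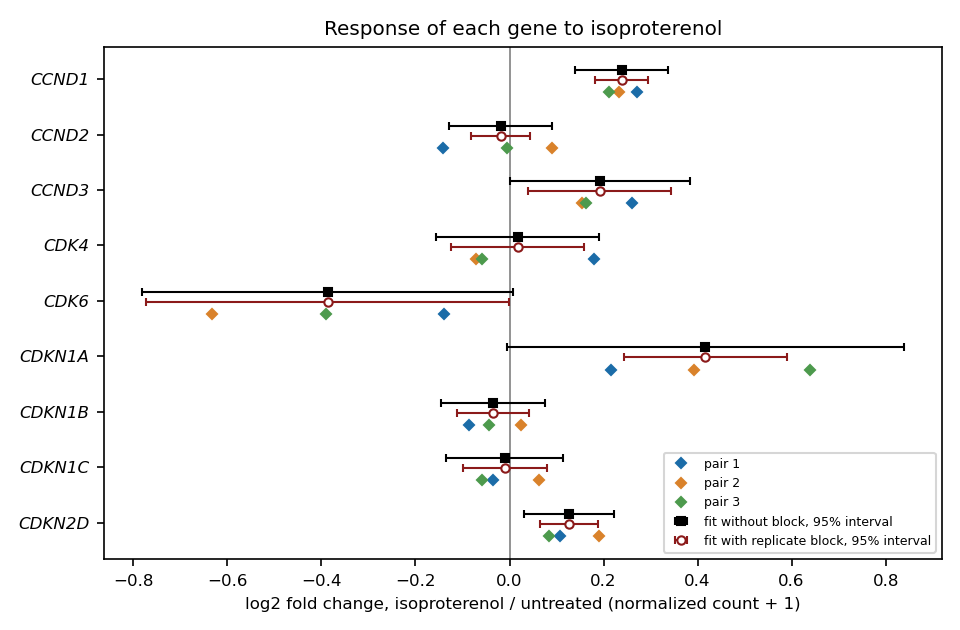
Log2 fold change of isoproterenol over untreated for the 9 genes, from limma without (black squares) and with the replicate block (open circles), with 95% intervals, and for each same-numbered pair (diamonds). CCND1 and CDKN2D lie above 0 on both intervals, CDKN1A and CCND3 do so with the block only, at 0.24 to 0.59 and 0.04 to 0.34, and the interval of CDK6 with the block ends just below 0.

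Ratios between the classes were compared last. The inhibitors summed to 18.7 ± 1.87 times the CDK4 and CDK6 sum per kb in untreated and 20.0 ± 0.490 times in isoproterenol samples, and the D cyclins to 8.51 ± 1.21 and 9.38 ± 0.336 times. These were per kb of merged exons. On MANE Select lengths the inhibitor ratios were 15.0 ± 1.53 and 15.7 ± 0.402, and the D cyclin ratios 6.47 ± 0.888 and 7.09 ± 0.216. On either length both ratios overlapped between the groups. Untreated sample 1, the one with the low CDK4 value, was the highest untreated sample for each.

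Across the 9 genes, 5 log2 fold changes were above 0 (50.5% of all genes) and 4 below, with a median of 0.017 against 0.0015 for all genes tested. In limma without the block 0 of the 9 passed FDR 0.05, as did 0 in edgeR, against 0.0165% of all genes in each, and 2 had an unadjusted p under 0.05 in limma (7.68% of all genes). With the block CCND1, CDKN1A and CDKN2D passed in limma (3 of 9, all higher, against 4.88% of all genes, 2.82% higher) and in edgeR (5.39%). In DESeq2, run without the block, CCND1 passed (against 0.116% of all genes). The groups did not overlap for CCND1, CDKN2D and CDK6, against 12.9% of all genes (6.73% with isoproterenol above and 6.19% below). Values were higher in all 3 pairs for 4 genes (18.5% of all genes) and lower in all 3 for CDK6 (17.6%). As the names were chosen with this contrast known, nothing is read from these shares.

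Other genes of the cell cycle were followed in 5 lists of 86 entries, of which 75 were tested. In limma without the block 0 of them passed FDR 0.05 (7 had an unadjusted p under 0.05), as did 0 in edgeR and in DESeq2. With the block 4 passed in limma (5.33%, against 4.88% of all genes), 3 higher and 1 lower (2.82% and 2.06% of all genes), a share near that of all genes. The median log2 fold change of the 75 was 0.03.

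The list of G1/S cyclins, RB family and E2F factors, downstream of the D cyclin kinases, had 12 tested genes, 6 above and 6 below 0, with a median of 0.0041 and none (0) called with the block. RBL2, an RB relative and the highest of them in mean count, was at 1085 ± 31.3 and 1045.0 ± 74.4 normalized counts. The point far to the right in the plot of gene lists is E2F7, a repressor E2F, named here after its value was seen. It held 5, 5 and 7 reads in untreated and 17, 10 and 14 in isoproterenol samples, and passed in neither limma fit (adjusted p = 0.504 unblocked and 0.133 blocked). The list of CDK activation and turnover had 17 tested genes, 8 above and 9 below 0, with a median of -0.0082 and 0 called. Its highest gene, DDB1, a subunit of a ubiquitin ligase, was at 6790.4 ± 93.3 and 6731 ± 161.

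DNA replication and mitosis genes had 15 tested members, 10 above and 5 below 0, with a median of 0.055, and 7 of the 22 listed had no row. The 1 call with the block was MCM6, a subunit of the replicative helicase, which fell. It read 271, 327 and 319 normalized counts in untreated and 232, 277 and 214 in isoproterenol samples, with a log2 fold change of -0.34 (SE 0.11) and a limma adjusted p of 0.449 without and 0.0121 with the block. The groups overlapped at untreated sample 1 and isoproterenol sample 2, and each pair was lower.

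CDKs and cyclins known from postmitotic cells had 14 tested members, 8 above and 6 below 0, with a median of 0.028. With the block CDK14, a kinase that binds cyclin Y, and CCNI, the cyclin I gene, rose. CDK14 was at 3901 ± 267 and 4373 ± 328 normalized counts (log2 fold change 0.16, limma adjusted p = 0.520 without and 1.21e-05 with the block). CCNI was at 19851 ± 291 and 21069 ± 712 (0.09, adjusted p = 0.583 and 5.44e-04 in limma), and its groups did not overlap. Neither passed without the block.

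Growth arrest and damage response genes, a group to which CDKN1A belongs by function, had 17 tested members besides it, 12 above and 5 below 0, with a median of 0.087. BTG2, an antiproliferative gene, was the only call with the block. It read 293, 357 and 251 normalized counts in untreated and 360.2, 447 and 453 in isoproterenol samples, and its groups did not overlap. The log2 fold change was 0.49 (SE 0.12), with a limma adjusted p of 0.273 without and 1.78e-05 with the block.

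**Figure D4:**
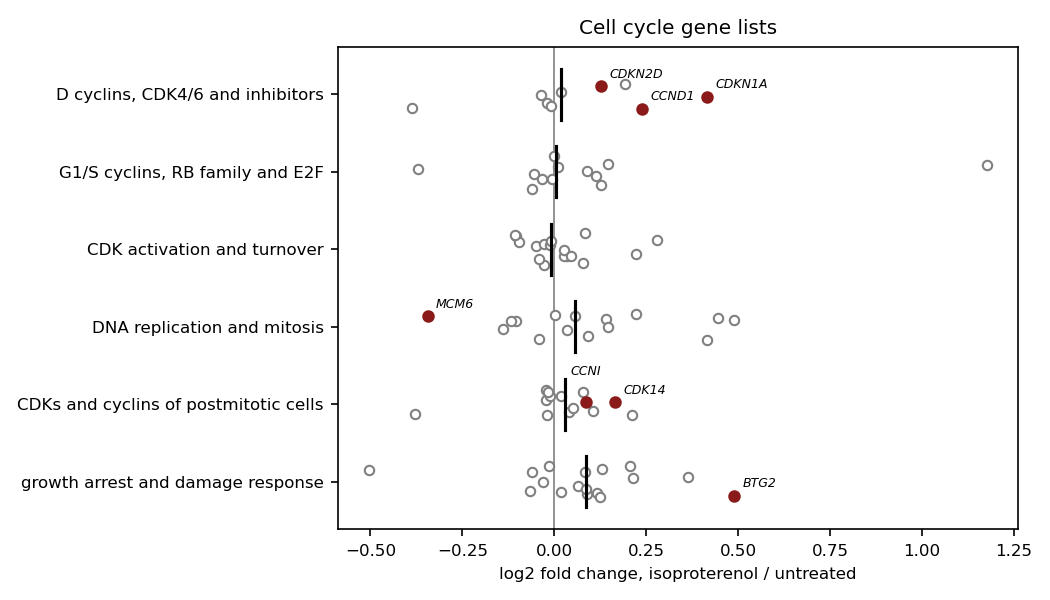
Log2 fold change of isoproterenol over untreated (limma) for the 9 genes and the 5 wider lists, with 1 point per tested gene, a black line at each median, and filled, named points for genes past FDR 0.05 with the replicate block. Medians lie between -0.0082 and 0.087, and 7 points are filled.

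Further, the genes whose pattern over the 6 samples was most like that of the gene with the highest normalized count in each class, with no correction for length, were taken from the 11586 genes averaging 100 or more normalized counts. For CCND1 these were SORL1 (Pearson r = 0.995, n = 6) and BICD2 (r = 0.989), with 43 genes above 0.95. SORL1 was at 434 in untreated and 520 in isoproterenol samples on average. For CDK4 they were TCAF1P1 (r = 0.991) and USP20 (0.975), for CDKN1B TUB (0.993) and IGSF3 (0.992), and for CDKN2D CKB (0.985) and CACNA1A (0.978). With 11586 genes compared over 6 samples that share their libraries and treatment, values this high describe likeness and no more.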

How the data were processed

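RNA-seq of 6 samples was used, with groups and numbers read from the titles. Per the labels and methods, the authors made directional libraries from poly(A) RNA, aligned reads to GRCh38 with STAR, counted them per gene with featureCounts (Subread) and scaled them with DESeq2. Versions, annotation and strand setting of that counting are not given in the sources used here. The deposited signal per gene and sample is the read count divided by 1 size factor per sample (0.867 to 1.03). Every value was a whole multiple of 1 step per sample (100% of values, tolerance 0.01 reads), which gave back whole reads. Replicates were distinct libraries (chi-square per degree of freedom 3.25 to 5.31 within groups). Positions, exon lengths and overlaps came from GENCODE release 44, which held 99.6% of the gene identifiers.

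Isoproterenol was compared with untreated samples by limma 3.58.1 (R 4.3.3; trend, robust, two-sided) on log2(normalized count + 1), with Benjamini-Hochberg adjustment over the 18130 genes with more than 5 reads in at least 4 samples. A gene passed at an adjusted p under 0.05. Both groups carry the numbers 1 to 3 in the labels. Each sample was set against its group mean over 11587 well-expressed genes (averaging 100 or more), and these deviations correlated between samples of like number at 0.269, 0.493 and 0.388. As each exceeded 0.1, the numbers served as pairs. edgeR 4.0.16 and DESeq2 1.42.0 were run on the recovered reads as alternatives, edgeR with and without the block and DESeq2 only without it. edgeR called 3 genes, as many as limma, and 977 with the block. Other alternatives were TMM and total-count scaling, 3 other filters, other pseudocounts, and leaving out each sample. The fits were also run on simulated data with known fold changes, all larger than the difference of CDKN2D, and nothing is drawn from that here.

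Named genes are the 10 listed, the calls in each wider list (otherwise its most abundant gene), the 2 closest patterns per class (for its gene with the highest normalized count), and RBM12. E2F7, CDKN2B, the overlapping genes LTO1 and TSPAN31, and single cell markers are named outside this rule, chosen after their values were seen. The genes and lists were chosen with earlier results of these data known. Besides the genes the text gives, 1 further gene of a wider list and 1 further cell marker are not reported here.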

Additional observations from a re-analysis of the deposited data

How the results depend on the processing

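Among all genes, 3 passed FDR 0.05 in limma without the block, 21 in DESeq2, 885 with the replicate block and 977 in edgeR with the block, and 2 to 67 when 1 sample was left out, with the 67 coming without isoproterenol replicate 2. Of the 9 G1 genes, 0 passed in limma, 1 in DESeq2, 3 with the replicate block in limma and 3 in edgeR with the block, and 0 to 1 with a sample left out. For the 75 genes of the wider lists the counts were 0 in limma, 4 with the block in limma, 4 in edgeR with the block, and 0 to 1 with a sample left out, the 1 coming without untreated replicate 2. Over 17 alternatives for each of 9 genes (153 values), 139 kept direction and side of the threshold, 8 newly passed it, and 6 changed sign on the log2 scale, each for a gene with no call. These were CCND2, at 0.027 without untreated replicate 1 and 0.014 without isoproterenol replicate 3 (range -0.067 to 0.027), CDK4, at -0.064 without untreated replicate 1 (range -0.064 to 0.059), and CDKN1C, at 0.011, 0.0073 and 0.029 without untreated replicate 2, isoproterenol replicate 1 and isoproterenol replicate 3 (range -0.068 to 0.029). The cause was not tested. The block changed no other call among the 9 genes than those of CCND1, CDKN1A and CDKN2D. MANE Select lengths were added after seeing the data and changed the order of levels. Depth limits CDK6 most, at 43 to 80 reads per sample, and 3 samples per group limit all fits.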
